A study of Homo sapiens with 16 samples.

Results

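The effect of all-trans retinoic acid (ATRA) by itself was measured in U-937, an established human line of monocyte-like leukaemia cells that the labels list under acute myeloid leukaemia. The comparison rests on 4 of the 16 libraries of the series, taken by their labels: 2 from cells given ATRA and 2 from cells given the solvent DMSO, across all genes of the count table. Cells in both groups were grown in RPMI1640 with serum and antibiotics and were collected after 24 h, and the labelled ATRA dose was 0.1 µM. The line's other 4 libraries, 2 with Corin, an inhibitor of the CoREST complex, and 2 with ATRA and Corin together, entered the model only to help estimate the spread between libraries. SKNO-1, a myeloid leukaemia line with the RUNX1-RUNX1T1 fusion, was treated in the same way but in medium with GM-CSF at 10 ng/mL, and is used below only to ask where the U-937 response differed.

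Retinoic acid acts through the receptors RARA, RARB and RARG, which sit on DNA as heterodimers with RXR proteins. Without ligand they hold corepressors such as NCOR1, and with ligand they exchange these for coactivators of the NCOA family. In myeloid cells this signalling is known for driving immature cells towards granulocyte or monocyte maturation, and it is the basis of the treatment of acute promyelocytic leukaemia.

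The deposited estimated counts summed to 30.6 and 28.8 M in the DMSO libraries and to 36.3 and 34.1 M in the ATRA libraries. Values per gene are given as CPM, counts per 1 M of a library total adjusted by edgeR's TMM scaling, as mean ± SD over 2 libraries (n = 2). For genes near 0, summed counts are the counts of both libraries of a group added together. A gene is called when its Benjamini-Hochberg adjusted p from edgeR's quasi-likelihood test is under 0.05. The labels do not say that the 2 libraries of a group came from separate cultures, so p-values measure the spread between these libraries, which may be technical. No permutation test of 1 gene can pass that threshold with 2 libraries a group. In bulk RNA, more cells of one kind and more RNA per cell cannot be told apart.

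Of 17699 genes tested, 7400 (41.8%) were called, 3843 (21.7%) higher and 3557 (20.1%) lower with ATRA. A change of at least 2-fold was seen in 2368 called genes (13.4%), 1362 (7.7%) of them higher and 1006 (5.68%) lower. The median log2 fold change of all genes tested was 0.02. The shares of 21.7% called higher and 20.1% called lower are the background for the counts of every gene list below. In 12817 genes (72.4%) the DMSO and ATRA libraries did not overlap, so non-overlap alone sets no gene apart here. Among protein-coding genes 3214 of 12765 were called higher and 3082 lower, and among long noncoding RNAs 424 of 3047 were called higher and 304 lower.

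**Figure D1:**
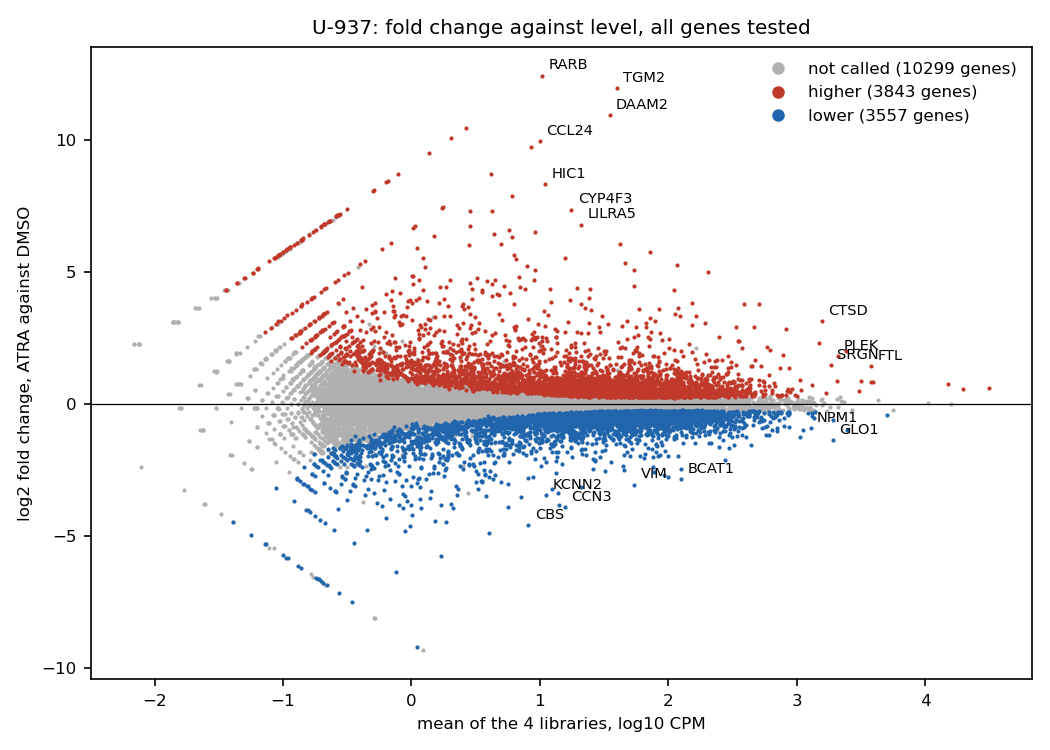
Each point is 1 of the 17699 genes tested in U-937, with the mean of the 4 libraries on a log10 CPM axis and the log2 fold change of ATRA against DMSO on the vertical axis. Red and blue mark the 3843 genes called higher and the 3557 called lower; RARB, TGM2 and DAAM2 stand at the top, and CBS is the lowest of the labelled genes.

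The identity of the line was checked against monocytic markers. CD33, a myeloid surface lectin, stood at 72.1 ± 1.29 CPM with DMSO and 94.3 ± 3.45 CPM with ATRA, and CD4, which monocytes share with T cells, at 114 ± 2.24 CPM with DMSO and 199 ± 6.64 CPM with ATRA. The lysozyme gene LYZ was at 229.9 ± 19.9 CPM with DMSO and 282 ± 4.66 CPM with ATRA, and HOXA10, a homeobox gene of immature myeloid cells, at 85.7 ± 6.51 CPM with DMSO and 91.1 ± 0.238 CPM with ATRA. CD14, the lipopolysaccharide coreceptor of mature monocytes, was close to absent, with 6 summed counts with DMSO and 4 with ATRA, and so was the granule peroxidase MPO, with 12 summed counts with DMSO and 25 with ATRA. Markers of other blood lineages were mostly at or near 0: GATA1, the globin genes HBA1, HBA2 and HBB, PF4, CD3D and the eosinophil gene EPX had no counts in any of the 4 libraries. Some were not: the 2 tested erythroid genes summed to 7.05 and 5.80 CPM with DMSO. The mast cell gene TPSAB1, the B cell factor PAX5 and the dendritic cell factor BATF3 were also present, with values given further below.

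The gene of the receptor RARB (ENSG00000077092.19, chromosome 3, 24687887 to 25597932, plus strand) gave one of the largest rises. It was at 0 and 0 CPM with DMSO and 21.1 and 20.5 CPM with ATRA. Against the floor that 0 counts allow, this is at least 427-fold higher (adjusted p = 1.60e-15). Its promoter holds the textbook binding site of retinoid receptors, a direct repeat of the half-site AGGTCA spaced by 5 bases, called DR5. The window below is RefSeq's, on GRCh38.p14, chr3:25428013-25428312 on the plus strand, from 250 bases before to 50 bases after the start of transcription; it is shown because it joins one of the line's largest rises to that site, and capitals mark the match, which begins 53 bases before the start.
RARB promoter: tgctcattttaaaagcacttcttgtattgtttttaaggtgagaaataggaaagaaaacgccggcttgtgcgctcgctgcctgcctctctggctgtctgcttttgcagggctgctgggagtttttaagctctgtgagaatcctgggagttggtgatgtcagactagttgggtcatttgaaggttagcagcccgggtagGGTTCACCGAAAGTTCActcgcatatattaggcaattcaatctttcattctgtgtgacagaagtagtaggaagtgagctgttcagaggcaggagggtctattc
The search took the half-site with A or G in the first place and G or T in the third, on both strands. Such a DR5 was found in 8 of the 15224 windows of tested genes (0.0525%), and in 31 of all 35116 windows in the reference (0.0883%). Among genes called higher by at least 2-fold it was found in 2 of 1139 windows, those of RARB and BATF2, a transcription factor of activated macrophages. It was in 0 of 876 windows of genes called lower by at least 2-fold and in 2 of 7714 of genes not called. Repeats spaced by 2 bases (DR2) or 1 base (DR1) were searched as well. They were in 0 and 4 of the 1139 windows, in 0 and 0 of the 876, and in 5 and 25 of the 15224 windows of tested genes. Windows were matched for 10560 genes by symbol, and a match describes the letters alone.

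Of the other receptors, RARA did not pass the test, with 10.4 ± 1.57 CPM with DMSO and 12 ± 1.3 CPM with ATRA (log2 fold change 0.20, SE 0.145), and RARG fell, from 6.07 ± 1.06 to 2.69 ± 0.142 CPM (log2 fold change -1.17, SE 0.202, adjusted p = 4.76e-05). NCOA3, a coactivator that nuclear receptors recruit when bound by ligand, was at 59.4 and 65.4 CPM with DMSO and 248 and 245 CPM with ATRA. Both ATRA libraries lay well above both DMSO libraries (log2 fold change 1.98, SE 0.102, adjusted p = 1.36e-13). NCOA2, of the same family, rose less, from 84.5 ± 4.85 to 124 ± 0.682 CPM (log2 fold change 0.56). The shares over all genes tested were 21.7% higher and 20.1% lower. Of 14 receptor and coregulator genes tested 5 were called higher and 1 lower, with a median log2 fold change of 0.19. The higher calls were 3 without ATRA replicate 1, ATRA replicate 2 or DMSO replicate 1 and with scaling to library totals alone, and the lower calls were 2 without DMSO replicate 2.

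Genes that make, carry or remove retinoids included calls in both directions, in shares not far from the 21.7% higher and 20.1% lower of all genes tested. DHRS3 (ENSG00000162496.9, chromosome 1, 12567910 to 12618210, minus strand), which reduces retinaldehyde back to retinol and so limits retinoic acid synthesis, was at 3.51 and 2.82 CPM with DMSO and 97.7 and 114 CPM with ATRA (log2 fold change 5.06, SE 0.156, adjusted p = 4.79e-16). DHRS9, a retinol dehydrogenase, rose from 2.8 ± 0.412 to 15.5 ± 0.624 CPM (log2 fold change 2.47, SE 0.158, adjusted p = 7.76e-12). Both enzymes were low in the 2 DMSO libraries and clearly higher in the 2 ATRA libraries. RDH10, the dehydrogenase that starts retinoic acid synthesis, fell from 19.8 ± 2.92 to 10.4 ± 0.97 CPM (log2 fold change -0.92, SE 0.136), and ALDH1A1, which finishes it, fell from 2.25 ± 0.565 to 0.888 ± 0.226 CPM (log2 fold change -1.33). The hydroxylases that clear retinoic acid were near 0 in both groups: CYP26A1 had 3 summed counts with DMSO and 1 with ATRA, and CYP26B1 had none. The intracellular carrier CRABP1 had 4 summed counts with DMSO and none with ATRA. In all, 12 of 21 such genes were tested and 4 were called higher and 2 lower (median 0.16); without ATRA replicate 2 the higher calls were 2.

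Textbook retinoic acid targets formed the list with the largest median. Of its 20 members, 6 had too few counts to test. In this and every other list, a gene silent with DMSO passes the count filter only through libraries with ATRA or Corin. Members silent throughout drop out, which can raise list medians. Of 14 tested, 9 were called higher and 2 lower, with a median log2 fold change of 3.09 against 0.02 for all genes; the list holds RARB and DHRS3, and the lower calls were 1 without ATRA replicate 2 or DMSO replicate 1. CD38, an ADP-ribosyl cyclase on the cell surface, stood at 13.2 and 11.9 CPM with DMSO and 403 and 391 CPM with ATRA (log2 fold change 4.99, SE 0.122, adjusted p = 2.33e-19). PLAAT4, a phospholipase also known as retinoic acid receptor responder 3, rose from 0.292 ± 0.0294 to 7.45 ± 0.0256 CPM (log2 fold change 4.65). UBA7, the enzyme that starts conjugation of the ubiquitin-like protein ISG15, rose from 5.42 ± 1.67 to 55.2 ± 2.29 CPM (log2 fold change 3.34). The chemokine CCL2 went the other way, from 4.66 ± 1.95 to 0.971 ± 0.0863 CPM (log2 fold change -2.26, SE 0.264, adjusted p = 4.39e-06). TNFSF10, the death ligand TRAIL, did not pass the test, with 2.67 ± 0.0786 CPM with DMSO and 3.16 ± 0.215 CPM with ATRA (log2 fold change 0.24, SE 0.2003).

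With a minimum of 5 CPM over the 4 libraries, several of the largest rises were in genes close to silent with DMSO. TGM2 (ENSG00000198959.12, chromosome 20, 38127385 to 38166578, minus strand), a protein cross-linking transglutaminase, was at 0 and 0.0339 CPM with DMSO and 80.3 and 78.3 CPM with ATRA, a ratio of 4874 (counting interval 874 to 192547). DAAM2 (ENSG00000146122.17, chromosome 6, 39792298 to 39904877, plus strand), a formin that builds actin filaments, was at 0 and 0.0679 CPM with DMSO and 72.2 and 68.1 CPM with ATRA, a ratio of 2156 (counting interval 597 to 17809.6). CCL24 (ENSG00000106178.6, chromosome 7, 75810825 to 75823356, minus strand), an eosinophil-attracting chemokine, was at 0.0313 and 0 CPM with DMSO and 18.5 and 21.3 CPM with ATRA, a ratio of 1219 (counting interval 218 to 48180.2). In these genes both ATRA libraries lay far above both DMSO libraries, whose values rest on 1 or 2 counts.

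ARL14EPL (chromosome 5, 116032324 to 116060118), a little-studied gene named for its likeness to an ARL14 effector, followed, with a ratio of 1039.7 (counting interval 186 to 41102). SIGLEC11 (chromosome 19, 49948985 to 49961172), an inhibitory sialic acid receptor of macrophages, had 3 summed counts with DMSO and 842 with ATRA, a ratio of 249 (counting interval 84.9 to 1209.8). Its sequence is close to that of a neighbouring pseudogene, so its counts are uncertain. HIC1 (ENSG00000177374.13, chromosome 17, 2054154 to 2063241, plus strand), a transcriptional repressor, was at 0.0313 and 0.102 CPM with DMSO and 20.4 and 23.5 CPM with ATRA (log2 fold change 8.31, SE 0.291, adjusted p = 1.27e-16). CYP4F3 (ENSG00000186529.16, chromosome 19, 15640897 to 15662825, plus strand), which inactivates leukotriene B4, was at 0.251 and 0.17 CPM with DMSO and 35.7 and 34.5 CPM with ATRA (log2 fold change 7.35, SE 0.205, adjusted p = 2.12e-18). LILRA5 (chromosome 19, 54307070 to 54313166), an activating leukocyte receptor in a family of near-identical neighbours, rose from 0.369 ± 0.186 to 41.8 ± 3.96 CPM (log2 fold change 6.79). HNRNPLL (chromosome 2, 38561969 to 38603586), an RNA-binding regulator of splicing in lymphocytes, rose from 0.115 ± 0.0296 to 11.3 ± 0.667 CPM (log2 fold change 6.59), and P2RY13 (chromosome 3, 151326312 to 151329549), an ADP receptor, from 0.193 ± 0.0812 to 18.2 ± 3.18 CPM (log2 fold change 6.52). HP (chromosome 16, 72054505 to 72061055), the haemoglobin-binding protein haptoglobin stored in neutrophil granules, rose from 0.15 ± 0.124 to 9.86 ± 1.16 CPM (log2 fold change 6.03). BATF2, named above for its promoter, is outside this set of the 12 largest rises.

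Among called genes averaging 5 CPM or more, the rule by which these falls were picked, the largest was in CBS. CBS (ENSG00000160200.17, chromosome 21, 43053191 to 43076943, minus strand), which joins homocysteine to serine in the transsulfuration pathway, was at 17 and 14.4 CPM with DMSO and 0.772 and 0.516 CPM with ATRA (log2 fold change -4.59, SE 0.228, adjusted p = 7.59e-14). CCN3 (ENSG00000136999.5, chromosome 8, 119416446 to 119424434, plus strand), a secreted matricellular protein, was at 26.6 and 31.9 CPM with DMSO and 1.68 and 2.22 CPM with ATRA (log2 fold change -3.91, SE 0.163, adjusted p = 3.10e-15). PDYN (ENSG00000101327.9, chromosome 20, 1978757 to 1994285, minus strand), the precursor of the opioid peptide dynorphin, fell from 10.6 ± 1.89 to 0.712 ± 0.11 CPM (log2 fold change -3.89, SE 0.257, adjusted p = 1.43e-11). In each of these the highest ATRA library was an order of magnitude below the lowest DMSO library.

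NRXN3 (chromosome 14, 78170373 to 79868291), a synaptic adhesion protein, fell from 13.2 ± 0.242 to 1.16 ± 0.161 CPM (log2 fold change -3.50), and KCNN2 (chromosome 5, 114055926 to 114496500), a calcium-activated potassium channel, from 20.5 ± 0.0311 to 1.88 ± 0.383 CPM (log2 fold change -3.44). TRIM71 (chromosome 3, 32817997 to 32897824), an RNA-binding ubiquitin ligase of embryonic cells, fell from 22.4 ± 1.99 to 2.4 ± 0.43 CPM (log2 fold change -3.22). VIM (ENSG00000026025.16, chromosome 10, 17228241 to 17237593, plus strand), the intermediate filament vimentin, was at 96 and 98.2 CPM with DMSO and 10.2 and 13.3 CPM with ATRA (log2 fold change -3.05, SE 0.126, adjusted p = 2.91e-15). AK5 (chromosome 1, 77282019 to 77559966), an adenylate kinase, fell from 10.02 ± 0.0064 to 1.22 ± 0.224 CPM (log2 fold change -3.03), and BCAT1 (ENSG00000060982.15, chromosome 12, 24810024 to 24949101, minus strand), the cytosolic enzyme that transaminates branched-chain amino acids, from 221 ± 17.3 to 30.8 ± 0.191 CPM (log2 fold change -2.84, SE 0.106, adjusted p = 4.80e-16). MATR3, a nuclear matrix protein, is listed under 2 overlapping gene identifiers; the one called here (ENSG00000280987.4) fell from 37.6 ± 5.46 to 4.23 ± 4.31 CPM, with its ATRA libraries far apart at 7.28 and 1.18 CPM, and its call was lost without DMSO replicate 1 (adjusted p = 0.0901) or DMSO replicate 2 (adjusted p = 0.115), so its value is uncertain.

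**Figure D2:**
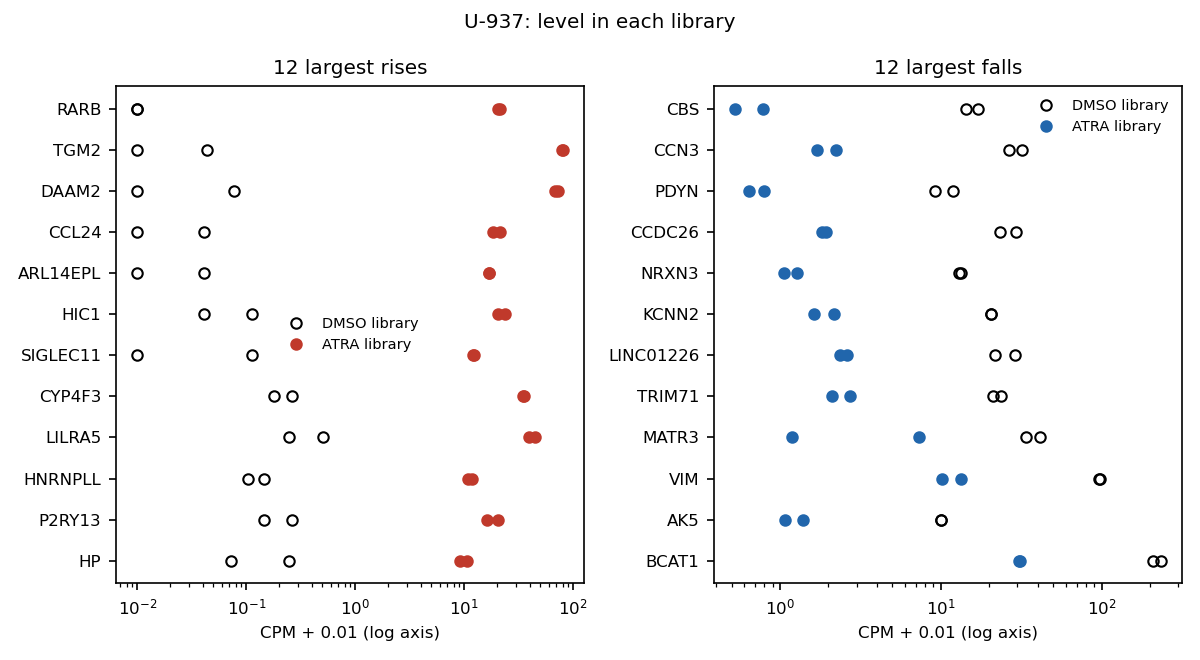
Level of the 12 genes with the largest rise (left) and the 12 with the largest fall (right) in each U-937 library, as CPM + 0.01 on a log axis; open points are DMSO libraries and filled points ATRA libraries. The genes were chosen with no overlap between the groups, and the 2 MATR3 libraries with ATRA lie far apart.

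Measured in TPM, which divides by transcript length and so allows levels of different genes to be set side by side, the largest gains were in genes that were already abundant. Log2 fold changes printed beside TPM come from the TMM-scaled counts, so they differ from the ratio of the TPM values. FTL, the light chain of the iron store ferritin, went from 2617 ± 29.5 to 6002 ± 33.4 TPM (log2 fold change 1.44, SE 0.134, adjusted p = 6.35e-09). CTSD, the lysosomal protease cathepsin D, went from 229.5 ± 42.2 to 1685 ± 10.1 TPM (log2 fold change 3.14, SE 0.149, adjusted p = 5.90e-14), and SRGN, the proteoglycan that packs granule proteins, from 871 ± 81.8 to 2033 ± 162 TPM. B2M, the shared subunit of MHC class I molecules, went from 2009 ± 117 to 2816 ± 162 TPM; PLEK, a substrate of protein kinase C in blood cells, from 353 ± 16.6 to 1067 ± 123 TPM; and TMSB10, an actin-binding thymosin, from 492 ± 28.8 to 1152 ± 36 TPM.

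The largest losses in TPM were in GLO1, the glyoxalase that detoxifies methylglyoxal, from 1424 ± 128 to 465 ± 22.1 TPM (log2 fold change -1.38, SE 0.131, adjusted p = 9.05e-09), and in NPM1, a nucleolar chaperone of ribosome assembly, from 1538 ± 88.2 to 718 ± 41.9 TPM. The chaperones HSP90AB1 and HSPD1 went from 1313 ± 106 to 559 ± 42.5 TPM and from 877 ± 71.6 to 390.3 ± 20.7 TPM. The ribosomal protein genes RPL9 and RPL14 also lost TPM, but their calls were borderline (adjusted p = 0.0482 and 0.0343) and were lost under several other settings. RPL9 fell from 2308 ± 83.4 to 1556 ± 119 TPM, but less on the TMM scale, from 1464 ± 10.6 to 1171 ± 3.01 CPM.

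Long noncoding RNAs moved in both directions. LINC01091 was at 0.72 and 0.95 CPM with DMSO and 9.27 and 8.26 CPM with ATRA (log2 fold change 3.39, SE 0.228, adjusted p = 2.05e-11), and PCAT18 rose from 0.809 ± 0.184 to 5.79 ± 0.241 CPM (log2 fold change 2.83). C5orf56, a transcript next to IRF1, rose from 2.04 ± 0.437 to 11.5 ± 1.45 CPM (log2 fold change 2.49). CCDC26 (chromosome 8, 128634199 to 129683770) fell from 26.4 ± 4.26 to 1.87 ± 0.0653 CPM (log2 fold change -3.82, SE 0.162, adjusted p = 4.17e-15), LINC01226 from 25.4 ± 4.96 to 2.48 ± 0.159 CPM (log2 fold change -3.35) and IGFL2-AS1 from 7.62 ± 0.742 to 1.07 ± 0.0317 CPM (log2 fold change -2.83). The use of strand in counting is not given in the sources used here. Values of antisense and overlapping transcripts such as IGFL2-AS1 and C5orf56 are therefore uncertain.

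**Figure D3:**
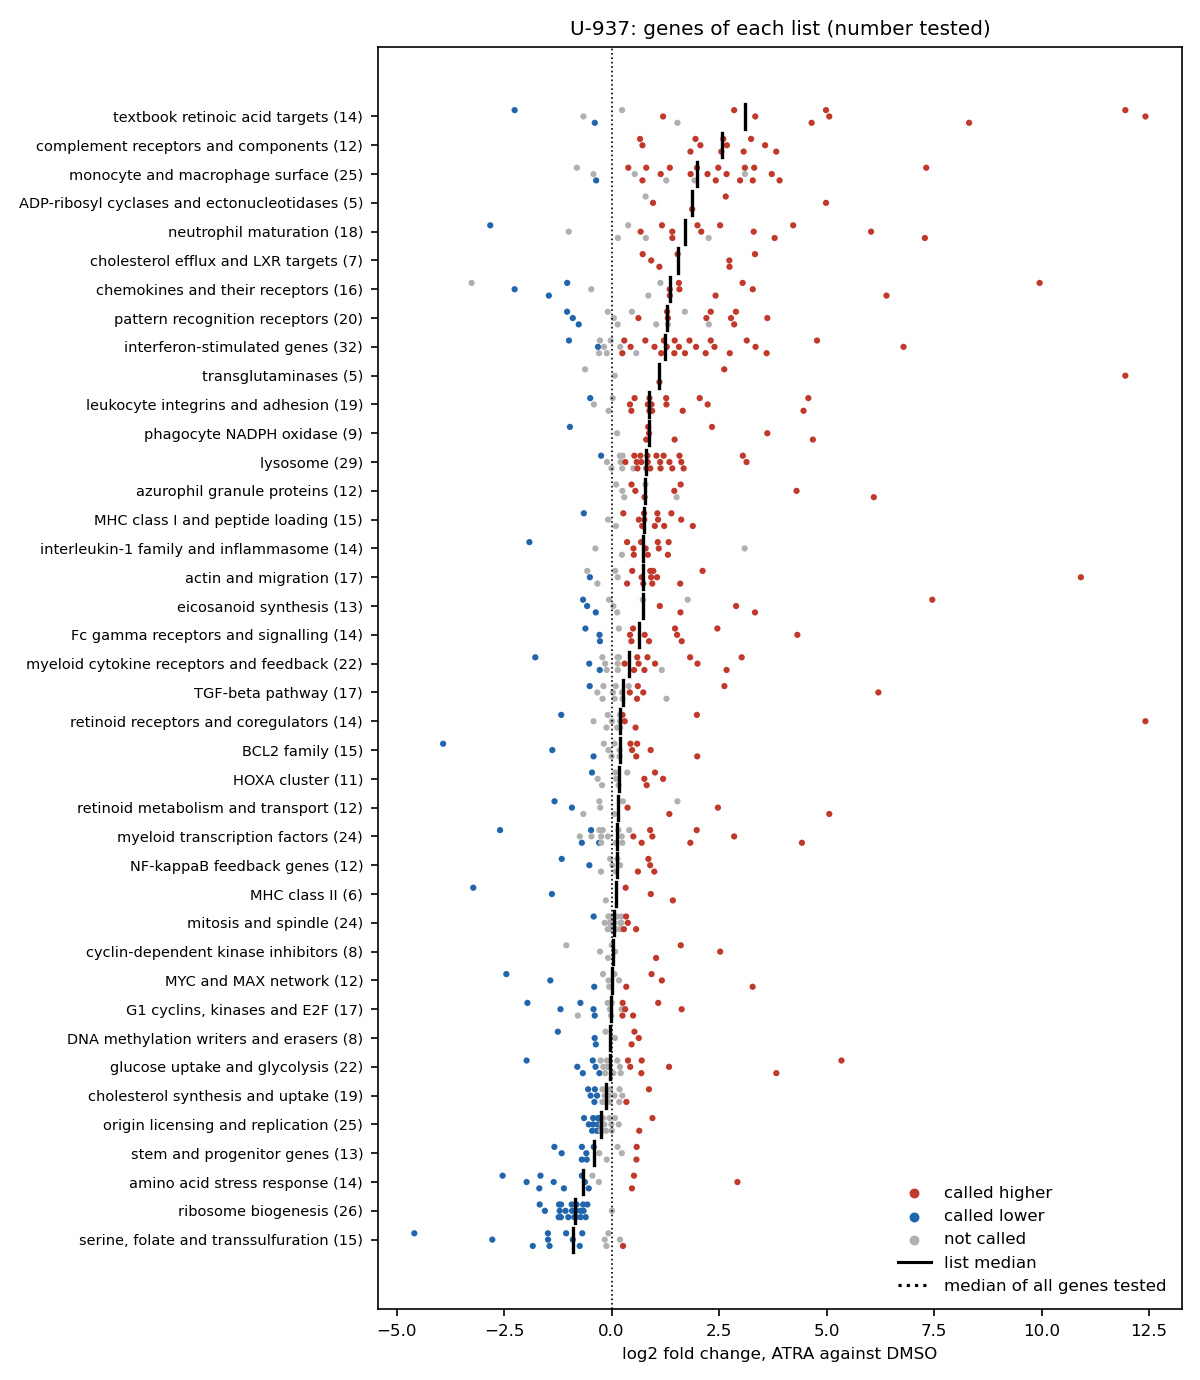
Log2 fold change of ATRA against DMSO for every tested gene of 40 lists, ordered by their medians (black bars); red, blue and grey mark genes called higher, called lower and not called, and the dotted line is the median of all genes tested. Textbook retinoic acid targets, complement, monocyte surface and neutrophil maturation genes lie to the right, ribosome biogenesis and serine and folate genes to the left.

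Lineage transcription factors included members called in both directions, in shares not far from those of all genes. Of 24 tested, 8 were called higher and 4 lower, with a median of 0.13. That median was 0.01 to 0.05 when DMSO replicate 1 or either ATRA library was left out. CEBPE, which drives late granulocyte maturation, was at 3.07 and 3.36 CPM with DMSO and 19.6 and 26.8 CPM with ATRA (log2 fold change 2.85, SE 0.162, adjusted p = 1.00e-12). CEBPB, active in monocytes and emergency granulopoiesis, rose from 12 ± 0.636 to 42.7 ± 8.39 CPM (log2 fold change 1.83, SE 0.142), and SPI1, which encodes PU.1, the master factor of the myeloid lineage, from 13.9 ± 3.08 to 26.9 ± 4.2 CPM (log2 fold change 0.95, SE 0.143). ID1, an inhibitor of helix-loop-helix factors, rose most in the list, from 0.621 ± 0.0814 to 13.4 ± 4.14 CPM (log2 fold change 4.43, SE 0.275, adjusted p = 3.97e-10), and ID2 rose from 32.5 ± 3.97 to 52.8 ± 11.5 CPM. MYB, a factor of immature blood cells, fell from 635 ± 11.6 to 393 ± 3.27 CPM (log2 fold change -0.69, SE 0.103, adjusted p = 7.88e-06), and IRF8, a monocyte and dendritic cell factor, from 108 ± 3.1 to 77.8 ± 1.27 CPM (log2 fold change -0.48). EGR1, an early response factor linked to macrophage fate, fell from 2.54 ± 0.178 to 0.414 ± 0.156 CPM (log2 fold change -2.59, SE 0.35, adjusted p = 1.89e-06). GFI1, CEBPA and RUNX3 did not pass the test, at log2 fold changes of -0.09, 0.25 and 0.16 (SE 0.0979, 0.103 and 0.106).

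Most adhesion receptors rose: of 19 tested, 15 were called higher and 1 lower, with a median of 0.88. ITGAM, the CD11b chain of the complement receptor CR3 and a classic marker of myeloid maturation, was at 4.82 and 4.58 CPM with DMSO and 99.3 and 108 CPM with ATRA (log2 fold change 4.46, SE 0.122, adjusted p = 1.76e-18). ITGB2, the CD18 chain that pairs with it, was at 129 and 102 CPM with DMSO and 343 and 384 CPM with ATRA (log2 fold change 1.65, SE 0.113, adjusted p = 2.92e-11). ITGAX (CD11c) rose from 6.17 ± 0.133 to 29 ± 1.71 CPM and ITGAL (CD11a), the chain of LFA-1, from 22 ± 0.501 to 90.9 ± 6.26 CPM. All 4 chains were low in both DMSO libraries relative to both ATRA libraries. ITGB7, the partner of gut-homing integrins, rose from 0.23 ± 0.0591 to 5.53 ± 0.845 CPM (log2 fold change 4.58). FERMT3 and TLN1, which switch integrins on from inside the cell, rose from 45.1 ± 3.95 to 83.1 ± 11.7 CPM and from 299 ± 22.8 to 549.5 ± 7.15 CPM. CD44, the hyaluronan receptor, fell from 206 ± 11.8 to 146 ± 6.18 CPM (log2 fold change -0.50, SE 0.0981, adjusted p = 2.33e-04), and ITGA4 did not pass the test, with 667 ± 12.9 CPM with DMSO and 635 ± 6.77 CPM with ATRA.

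Surface genes of monocytes and macrophages had 25 members tested, of which 18 were called higher and 1 lower, with a median of 1.99; the lower call was lost without ATRA replicate 1. CD36, a scavenger receptor for oxidised lipids, was at 26.4 and 33.5 CPM with DMSO and 282 and 314 CPM with ATRA (log2 fold change 3.32, SE 0.128, adjusted p = 7.36e-16). CD68, a lysosomal glycoprotein of macrophages, was at 35.6 and 33.4 CPM with DMSO and 265 and 282 CPM with ATRA (log2 fold change 2.99, SE 0.108, adjusted p = 2.91e-16). CSF1R, the receptor of macrophage colony-stimulating factor, rose from 0.803 ± 0.161 to 5.12 ± 0.102 CPM (log2 fold change 2.67, SE 0.203, adjusted p = 1.86e-10). The ATRA libraries were apart from the DMSO libraries in all of these, CSF1R remaining at a few CPM. VSIG4, a complement receptor of tissue macrophages, had 3 summed counts with DMSO and 581 with ATRA, a ratio of 172 (counting interval 58.5 to 836). TYROBP, the DAP12 adaptor, rose from 3.48 ± 0.0322 to 29.9 ± 1.6 CPM, and TREM2, a receptor that signals through it, from 0.163 ± 0.00927 to 2.5 ± 0.374 CPM (log2 fold change 3.91). CCR2, the receptor that brings monocytes to inflamed tissue, rose from 0.581 ± 0.197 to 5.72 ± 0.368 CPM (log2 fold change 3.28), CD86, a costimulator of T cells, from 0.345 ± 0.0887 to 4.58 ± 0.903 CPM (log2 fold change 3.72) and the efferocytosis receptor MERTK from 27.2 ± 1.94 to 97.1 ± 2.89 CPM. CD93, a C-type lectin-like receptor, was at 957 and 1002 CPM with DMSO and 3899 and 3856 CPM with ATRA (log2 fold change 1.99, SE 0.124, adjusted p = 5.38e-12). CD163, MRC1 and MSR1, markers of resident or alternatively activated macrophages, had at most 6 summed counts in either group.

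Genes of Fc gamma receptors and their signalling gave 14 tests, of which 10 were called higher and 3 lower (median 0.63); the lower calls were 1 without any 1 of the 4 libraries. Lower calls were near the share of all genes tested, which was 20.1%, against 21.7% for higher calls. FGR, a SRC-family kinase of myeloid cells, was at 10.5 and 10.6 CPM with DMSO and 204 and 217 CPM with ATRA (log2 fold change 4.32, SE 0.111, adjusted p = 4.77e-19). LYN, of the same family, rose from 114 ± 7.5 to 353 ± 6.39 CPM (log2 fold change 1.63), and the shared chain FCER1G from 34.3 ± 4.67 to 98.6 ± 2.97 CPM (log2 fold change 1.52). FCGR1A, the high-affinity IgG receptor CD64, rose from 14.9 ± 1.24 to 41.3 ± 0.0987 CPM (log2 fold change 1.47, SE 0.113, adjusted p = 2.13e-10), with near-identical paralogs that make its counts uncertain. FCGRT, which recycles IgG, rose from 31.4 ± 3.37 to 173 ± 17.6 CPM. FCGR2B, the inhibitory receptor, fell from 14.5 ± 0.526 to 9.52 ± 0.151 CPM (log2 fold change -0.61), and FCGR3A had 1 summed count with DMSO and 0 with ATRA.

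The respiratory burst enzyme followed the same direction. Of 9 genes of the phagocyte NADPH oxidase, 7 were called higher and 1 lower (median 0.87). CYBB, the catalytic subunit gp91phox, was at 17.4 and 18.3 CPM with DMSO and 218 and 220.5 CPM with ATRA (log2 fold change 3.62, SE 0.124, adjusted p = 1.03e-16). Its membrane partner CYBA rose from 18.6 ± 4.06 to 51.5 ± 8.85 CPM (log2 fold change 1.46, SE 0.168, adjusted p = 2.06e-05). The cytosolic subunit NCF4 (p40phox) rose from 52.5 ± 5.89 to 91.6 ± 11.5 CPM (log2 fold change 0.80, SE 0.107, adjusted p = 1.62e-06). NCF1 (p47phox) rose from 0.676 ± 0.292 to 17.3 ± 1.31 CPM (log2 fold change 4.68), but it shares reads with 2 near-identical pseudogenes and is uncertain. HVCN1, the proton channel that balances the charge of the burst, fell from 4.72 ± 0.1002 to 2.41 ± 0.184 CPM (log2 fold change -0.97, SE 0.212).

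Granule genes showed a divided picture. For the azurophil granules of promyelocytes and monocytes, 12 genes were tested and 7 were called higher and 0 lower (median 0.78). PRTN3, the serine protease proteinase 3, was at 48.5 and 35.6 CPM with DMSO and 124 and 133 CPM with ATRA (log2 fold change 1.61, SE 0.125, adjusted p = 2.55e-09). BPI, which binds bacterial lipopolysaccharide, rose from 0.335 ± 0.234 to 6.8 ± 0.254 CPM (log2 fold change 4.30, SE 0.255), and DEFA4, an alpha-defensin, had 1 summed count with DMSO and 94 with ATRA, a ratio of 83.4 (counting interval 14.6 to 3328). CTSG and AZU1, a further protease and its inactive relative, did not pass the test, with 686 ± 39.3 CPM with DMSO and 815 ± 59.7 CPM with ATRA and with 35.5 ± 14.2 CPM with DMSO and 61.2 ± 4.58 CPM with ATRA.

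Of genes that mark later neutrophil maturation 18 of 27 were tested and 12 were called higher and 1 lower (median 1.70); the lower call was lost without ATRA replicate 1, ATRA replicate 2 or DMSO replicate 1. S100A9, a subunit of calprotectin, was at 2.57 and 3.12 CPM with DMSO and 37.7 and 40.9 CPM with ATRA (log2 fold change 3.79, SE 0.144, adjusted p = 5.70e-16), and its partner S100A8 rose from 0.355 ± 0.118 to 6.75 ± 0.622 CPM (log2 fold change 4.22). CSF3R, the receptor of granulocyte colony-stimulating factor, was at 55.4 and 45.6 CPM with DMSO and 200.5 and 203 CPM with ATRA (log2 fold change 2.00, SE 0.111, adjusted p = 6.88e-13). FPR1, which senses bacterial formyl peptides, rose from 0.274 ± 0.0996 to 2.77 ± 0.29 CPM (log2 fold change 3.30) and ANXA1, a lipid-binding protein that restrains neutrophils, from 20.6 ± 4.26 to 118 ± 11.7 CPM (log2 fold change 2.52). CEACAM1, an adhesion molecule of granules and membrane, had 2 summed counts with DMSO and 393 with ATRA, a ratio of 174 (counting interval 47.9 to 1445). The secondary and tertiary granule genes LCN2, OLFM4, CRISP3, ARG1 and CD177 had no counts in these libraries, and LTF, lactoferrin, had 3 summed counts with DMSO and 7 with ATRA. In the fit of all 16 libraries, which tested 19 neutrophil maturation genes, the U-937 median was 1.41.

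Many sensors of microbes rose: of 20 tested, 9 were called higher and 3 lower (median 1.30), and the lower calls were 1 without ATRA replicate 2. TLR4, the lipopolysaccharide receptor, was at 89.7 and 110.3 CPM with DMSO and 239.9 and 249 CPM with ATRA (log2 fold change 1.29, SE 0.109, adjusted p = 1.18e-09). Its partner LY96 (MD-2) rose from 0.572 ± 0.0555 to 2.83 ± 0.0287 CPM (log2 fold change 2.30), and the flagellin receptor TLR5 from 0.613 ± 0.195 to 2.85 ± 0.215 CPM. TLR1 and TLR6, which sense bacterial lipopeptides, rose from 0.557 ± 0.124 to 4.13 ± 0.558 CPM and from 0.308 ± 0.0516 to 2.24 ± 0.767 CPM, and TLR8, a sensor of RNA in endosomes, from 0.0822 ± 0.0277 to 0.588 ± 0.285 CPM. NLRC4, an inflammasome sensor of bacterial flagellin, was at 3.38 and 3.43 CPM with DMSO and 43.5 and 40.3 CPM with ATRA (log2 fold change 3.62, SE 0.144, adjusted p = 1.34e-15). CLEC5A, a lectin that couples to DAP12, fell from 126 ± 6.42 to 61.4 ± 3.57 CPM (log2 fold change -1.04, SE 0.102, adjusted p = 1.54e-08).

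Of 14 tested genes of the interleukin-1 family and the inflammasome, 10 were called higher and 1 lower (median 0.74). The higher calls were 7 with DESeq2's test and 8 with scaling to library totals alone or without the count filter. NLRP3, the best-known inflammasome sensor, was at 39.7 and 38.8 CPM with DMSO and 98 and 96.5 CPM with ATRA (log2 fold change 1.31, SE 0.104, adjusted p = 4.24e-10). The adaptor PYCARD rose from 21.9 ± 0.645 to 46 ± 4.8 CPM, the protease CASP1 from 9.64 ± 0.0508 to 20.6 ± 0.336 CPM and the pore former GSDMD from 14.1 ± 2.54 to 22.7 ± 2.15 CPM. IL1RN, the secreted antagonist of the interleukin-1 receptor, fell from 3.07 ± 0.174 to 0.817 ± 0.219 CPM (log2 fold change -1.91, SE 0.247, adjusted p = 1.02e-06). IL6 had no counts, and IL10 had 0 summed counts with DMSO and 3 with ATRA.

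Chemokines and their receptors gave 16 tests, of which 9 were called higher and 3 lower (median 1.35), against 21.7% and 20.1% of all genes tested. CCR1, a receptor of inflammatory chemokines, was at 4.57 and 5.84 CPM with DMSO and 44.4 and 41.5 CPM with ATRA (log2 fold change 3.05, SE 0.131, adjusted p = 4.98e-15), and CXCR4, which holds cells in the marrow, at 158 and 174 CPM with DMSO and 406 and 439.7 CPM with ATRA (log2 fold change 1.35, SE 0.115, adjusted p = 1.37e-09). CCL23, a ligand of CCR1, rose from 2.17 ± 0.0541 to 11.6 ± 0.644 CPM (log2 fold change 2.42). CCL5 fell from 67.9 ± 3.4 to 33.2 ± 2.72 CPM (log2 fold change -1.03) and CXCL8, the neutrophil attractant interleukin-8, from 3.14 ± 0.985 to 1.15 ± 0.568 CPM (log2 fold change -1.46), in the direction given above for CCL2. The receptors CCR1, CCR2 and CXCR4 thus rose, and ligands were found on both sides.

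Interferon-stimulated genes were mostly higher: of 32 tested, 23 were called higher and 2 lower, 18 of the higher calls by at least 2-fold. Their median was 1.25, or 1.18 with genes lacking counts in a group held to the floor. The higher calls were 20 with DESeq2's test or with scaling to library totals alone. Leaving out any 1 of the 4 libraries also left fewer higher calls, with medians from 1.26 to 1.29. The lower calls were 1 without ATRA replicate 1, ATRA replicate 2 or DMSO replicate 2. IRF1, a transcription factor that retinoic acid and interferon gamma both induce, was at 9.08 and 8.76 CPM with DMSO and 107 and 111 CPM with ATRA (log2 fold change 3.60, SE 0.109, adjusted p = 1.11e-17). Guanylate-binding proteins, GTPases that attack intracellular microbes, rose: GBP2 from 2.07 ± 0.00243 to 21.1 ± 2.19 CPM, GBP5 from 16 ± 0.7003 to 141 ± 10.6 CPM, and GBP4 from 0 counts to 0.418 CPM, at least 8.58-fold higher. OAS3, which makes the activator of RNase L, was at 27.4 and 23.2 CPM with DMSO and 118 and 113 CPM with ATRA (log2 fold change 2.19, SE 0.106, adjusted p = 5.08e-14). IFI6 rose from 7.39 ± 0.0865 to 36.6 ± 1.99 CPM, IFIT3 from 3.64 ± 0.138 to 11.9 ± 0.667 CPM and SAMD9L from 7.77 ± 0.664 to 30.3 ± 2.1 CPM, 3 genes of antiviral defence. The signal carriers STAT2 and IRF9 rose from 53.7 ± 2.86 to 119.5 ± 7.85 CPM and from 3.34 ± 0.593 to 9.25 ± 0.885 CPM. Not all members moved: MX1, IFIT1, XAF1 and EIF2AK2 did not pass the test, at log2 fold changes of 0.20, -0.29, -0.11 and -0.18. USP18, which removes ISG15 and damps interferon signalling, fell from 8.84 ± 0.503 to 4.44 ± 0.271 CPM (log2 fold change -0.99, SE 0.189, adjusted p = 1.54e-04).

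Many promoters of this family, though not all, carry the interferon-stimulated response element. It was searched here by its core, a GAAA repeated after 2 free bases, on both strands. The core was present in the windows of 9 of 14 called-higher members with a window and in 6 of 7 members not called, against 451 of 10560 tested genes (4.27%). GBP4, called higher, and IFIT1, not called, are printed to show that both kinds hold it; the windows are RefSeq's on GRCh38.p14, chr1:89198893-89199192 on the minus strand and chr10:89392373-89392672 on the plus strand, written 5′ to 3′ along the gene, and capitals mark the core on either strand.
GBP4 promoter: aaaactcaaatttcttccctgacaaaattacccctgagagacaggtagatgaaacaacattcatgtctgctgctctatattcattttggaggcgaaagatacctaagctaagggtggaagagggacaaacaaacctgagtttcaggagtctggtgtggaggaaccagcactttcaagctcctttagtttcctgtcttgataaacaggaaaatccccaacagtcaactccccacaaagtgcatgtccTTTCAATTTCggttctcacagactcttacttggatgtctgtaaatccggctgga
IFIT1 promoter: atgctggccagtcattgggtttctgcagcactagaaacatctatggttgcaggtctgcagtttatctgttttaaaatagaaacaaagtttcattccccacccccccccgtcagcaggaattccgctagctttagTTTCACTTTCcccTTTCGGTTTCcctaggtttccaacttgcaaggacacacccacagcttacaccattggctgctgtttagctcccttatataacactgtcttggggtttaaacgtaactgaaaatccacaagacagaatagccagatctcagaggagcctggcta
The core was thus found both in rising members of the list and in members not called.

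Antigen presentation was described by class. Of 15 genes of MHC class I and peptide loading, 12 were called higher and 1 lower (median 0.76). HLA-E was at 81.8 and 76.5 CPM with DMSO and 162 and 169 CPM with ATRA (log2 fold change 1.06, SE 0.1002, adjusted p = 7.36e-09), the class I genes HLA-B and HLA-C rose by 0.75 and 1.00 on the log2 scale, and the immunoproteasome subunits PSMB9 and PSMB10 rose from 11.2 ± 1.72 to 26.1 ± 1.42 CPM and from 10.7 ± 0.407 to 32.8 ± 6.37 CPM. The HLA genes are alike and polymorphic, so reads may be divided unevenly among them. TAP2, a subunit of the peptide pump, fell from 60.01 ± 2.65 to 38.3 ± 1.7 CPM (log2 fold change -0.65, SE 0.0995, adjusted p = 1.19e-05). Of class II genes 6 of 11 were tested and 3 were called higher and 2 lower; without ATRA replicate 2 or DMSO replicate 1 there was 1 call each way, and scaling to library totals alone or DESeq2 left 1 higher call. CIITA, the master activator of class II, was at 6.58 and 5.26 CPM with DMSO and 0.7997 and 0.455 CPM with ATRA (log2 fold change -3.22, SE 0.258, adjusted p = 4.75e-10), and HLA-DMA, which loads peptides, rose from 2.25 ± 0.402 to 6.08 ± 0.719 CPM (log2 fold change 1.42).

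All 12 tested complement genes were called higher, with a median of 2.57, and 5 more of the list were not tested. In the fit of all 16 libraries, which tested 15 of the list, the U-937 median was 2.25. CR1, the receptor of C3b, was at 13.7 and 14.2 CPM with DMSO and 138 and 125 CPM with ATRA (log2 fold change 3.24, SE 0.108, adjusted p = 6.35e-17). C2, a protease precursor of the classical pathway, was at 14.7 and 13.6 CPM with DMSO and 117 and 122 CPM with ATRA (log2 fold change 3.07, SE 0.109, adjusted p = 1.95e-16). CFP, properdin, which stabilises the alternative convertase, rose from 3.85 ± 0.265 to 45.8 ± 1.88 CPM (log2 fold change 3.57), CFD (factor D) from 3.92 ± 0.837 to 23 ± 0.603 CPM and C3 from 1.19 ± 0.485 to 7.74 ± 0.607 CPM. Both anaphylatoxin receptors, C5AR1 and C3AR1, rose, from 1.2 ± 0.162 to 5.05 ± 0.159 CPM and from 2.27 ± 0.244 to 8.77 ± 0.513 CPM. The smallest rises were in the host-protecting CD46 and CD55, at log2 fold changes of 0.72 and 0.66.

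Of 22 genes of cytokine receptors and feedback, 11 were called higher and 3 lower (median 0.41). IL10RA, the ligand-binding chain for interleukin-10, rose from 10.4 ± 0.42 to 37 ± 0.573 CPM (log2 fold change 1.83, SE 0.112, adjusted p = 3.84e-12), and the GM-CSF receptor chains CSF2RA and CSF2RB from 19.4 ± 1.7 to 39 ± 0.907 CPM and from 11.7 ± 0.778 to 18 ± 1.47 CPM. SOCS3, a brake on G-CSF and interleukin-6 signalling, rose from 0.277 ± 0.0073 to 2.28 ± 0.42 CPM (log2 fold change 3.02), and SOCS2 fell from 10.7 ± 0.495 to 3.14 ± 0.622 CPM (log2 fold change -1.78, SE 0.191, adjusted p = 6.37e-08). IL6R did not pass the test, with 170.0 ± 6.47 CPM with DMSO and 188 ± 2.03 CPM with ATRA.

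**Figure D4:**
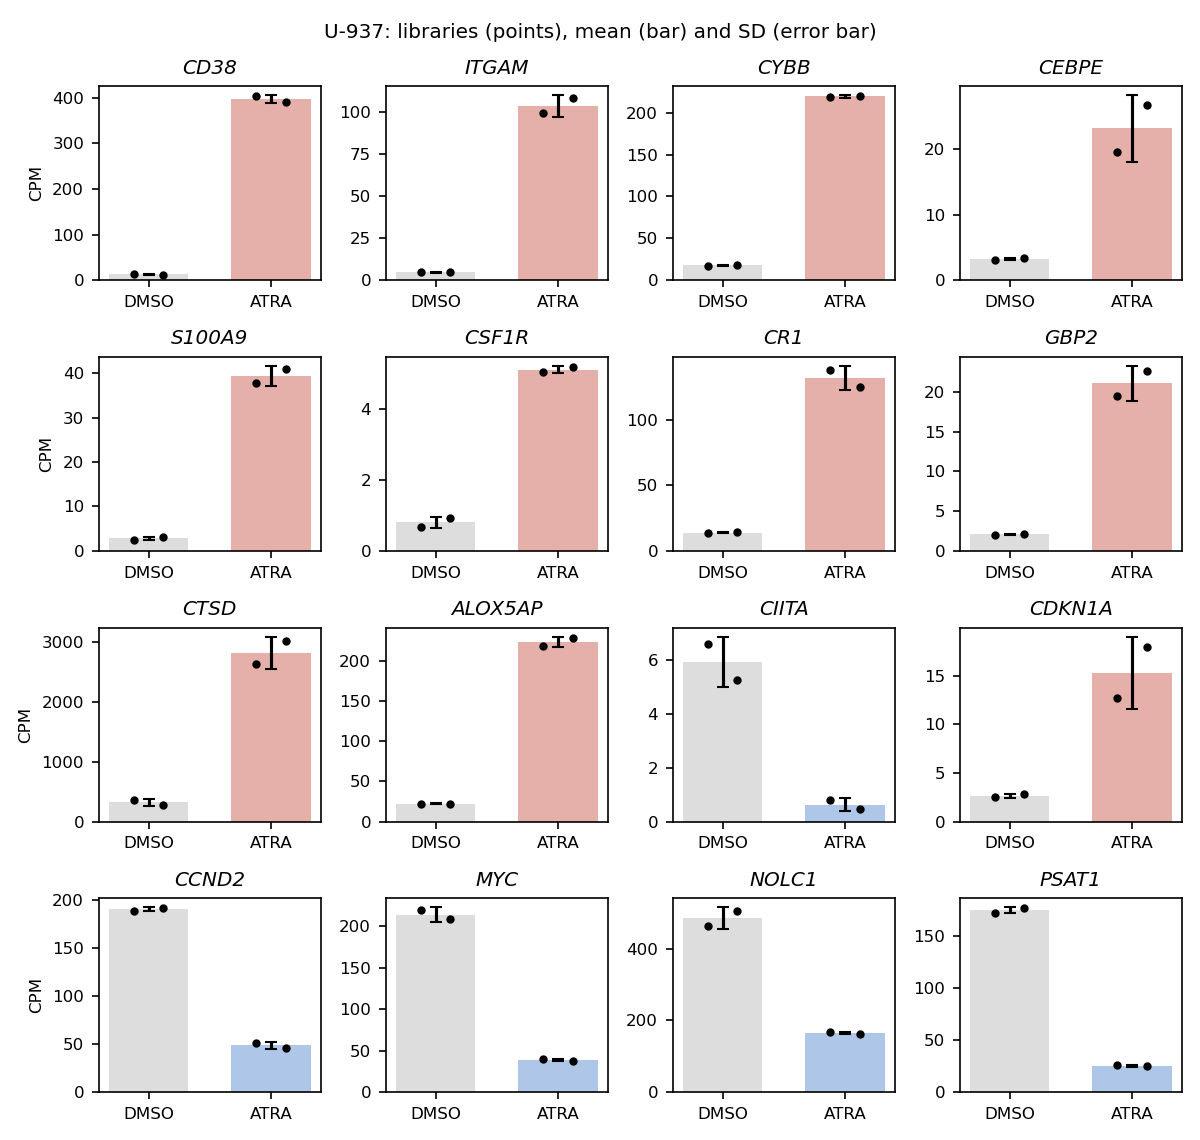
CPM of 16 genes in each U-937 library (points) with the mean (bar) and SD (error bar) of each group of 2. Markers of maturation such as ITGAM, CYBB and CR1 are several times higher with ATRA, and CIITA, CCND2, MYC, NOLC1 and PSAT1 are lower.

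Genes of stem and progenitor cells tended downwards: of 13 tested, 2 were called higher and 7 lower, with a median of -0.42, or -0.63 without DMSO replicate 1. MSI2, an RNA-binding protein of blood stem cells, fell from 57.2 ± 2.14 to 38 ± 3.04 CPM (log2 fold change -0.59, SE 0.103, adjusted p = 5.76e-05), LMO2, a bridging factor, from 51.2 ± 3.88 to 34.3 ± 1.18 CPM and ERG, an ETS factor of stem cells, from 5.99 ± 0.0278 to 2.37 ± 0.82 CPM (log2 fold change -1.33). CD47, the surface signal against phagocytosis, fell from 299 ± 6.1 to 185 ± 7.3 CPM (log2 fold change -0.69, SE 0.0983, adjusted p = 4.15e-06). MEIS1, a cofactor of HOX proteins in leukaemia, went the other way, at 253 and 246 CPM with DMSO and 383 and 361 CPM with ATRA (log2 fold change 0.58, SE 0.0993, adjusted p = 4.87e-05), and SOX4 rose from 42.5 ± 0.396 to 63.6 ± 0.304 CPM (log2 fold change 0.58). WT1 did not reach the count minimum of the fit of the U-937 libraries alone, with 16 summed counts with DMSO and 0 with ATRA, and CD34 had 0 summed counts with DMSO and 1 with ATRA. In the HOXA cluster 11 genes were tested and 4 were called higher and 1 lower; the higher calls were 2 without DMSO replicate 2, with scaling to library totals alone, with DESeq2 or with the GC trend removed. Among all genes tested, 21.7% were called higher and 20.1% lower. HOXA9, a driver of immature myeloid growth, fell from 55.7 ± 2.85 to 40.6 ± 3.05 CPM (log2 fold change -0.46, SE 0.102, adjusted p = 8.17e-04).

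Cell cycle genes did not move as 1 block. For the counts that follow, 21.7% of all genes tested were called higher and 20.1% lower. Among 8 inhibitors of cyclin-dependent kinases, 3 were called higher and 0 lower (median 0.04), with 2 lower under scaling to library totals alone or with the GC trend removed. CDKN1A, which encodes p21, was at 2.51 and 2.82 CPM with DMSO and 12.7 and 17.9 CPM with ATRA (log2 fold change 2.52, SE 0.168, adjusted p = 3.47e-11), and CDKN2D (p19) at 4.89 and 4.82 CPM with DMSO and 14.8 and 14.8 CPM with ATRA (log2 fold change 1.61, SE 0.148, adjusted p = 5.12e-09). CDKN2C (p18) rose from 21.5 ± 0.875 to 44 ± 0.386 CPM. Of 17 genes of the G1 phase 6 were called higher and 5 lower, the higher calls 3 without ATRA replicate 1, ATRA replicate 2 or DMSO replicate 1. CCND2, a D-type cyclin, was at 188 and 191 CPM with DMSO and 51.3 and 46.3 CPM with ATRA (log2 fold change -1.96, SE 0.0982, adjusted p = 9.23e-14), and its kinase CDK6 at 816 and 882 CPM with DMSO and 377 and 368 CPM with ATRA (log2 fold change -1.19, SE 0.105, adjusted p = 2.58e-09). CDK4 and the phosphatase CDC25A fell less, at log2 fold changes of -0.42 and -0.73. E2F2 and CCNE2, which act at the entry to S phase, rose from 25.3 ± 0.0791 to 78.2 ± 5.18 CPM and from 28.4 ± 5.53 to 60.2 ± 4.35 CPM.

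Replication genes shifted slightly down. Of 25 tested, 2 were called higher and 12 lower (median -0.24), but only 5 to 6 lower calls were left without any 1 of the 4 libraries. The helicase subunits MCM4 and MCM6 fell from 559.8 ± 12.4 to 409 ± 4.41 CPM and from 654 ± 33.9 to 419.6 ± 6.38 CPM (log2 fold change -0.45 and -0.64), and GINS2, of the same replicative helicase, from 52.3 ± 1.54 to 36.2 ± 1.121 CPM. RRM2, the regulated subunit of ribonucleotide reductase, rose from 334 ± 27.6 to 521 ± 14.4 CPM (log2 fold change 0.64, SE 0.105, adjusted p = 2.73e-05), and ORC6, of the origin recognition complex, from 38.8 ± 2.23 to 74.8 ± 2.55 CPM (log2 fold change 0.95, SE 0.102, adjusted p = 6.77e-08). For mitosis and the spindle, 24 genes had a median of 0.06, and 4 were called higher and 1 lower; the higher calls were 2 without ATRA replicate 2 or DMSO replicate 2 and 1 without DMSO replicate 1, and the lower call was lost without DMSO replicate 2. CDK1 and PLK1, the main mitotic kinases, did not pass the test, at log2 fold changes of 0.23 (SE 0.116) and -0.08 (SE 0.101). BIRC5, survivin, did not either, with 39.9 ± 1.85 CPM with DMSO and 42.9 ± 2.22 CPM with ATRA.

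MYC, the growth-promoting transcription factor, was at 219.7 and 208 CPM with DMSO and 40.01 and 38.3 CPM with ATRA (log2 fold change -2.45, SE 0.1001, adjusted p = 2.22e-15). The groups were far apart and the replicates close. Of 12 genes of its network 4 were called higher and 3 lower, with a median of 0.01. MYCL, a relative of MYC, fell from 3.95 ± 0.167 to 1.47 ± 0.227 CPM (log2 fold change -1.43), while the antagonists MXD3 and MXD4 rose from 2.24 ± 0.817 to 5.06 ± 0.527 CPM and from 5.5 ± 0.24 to 10.5 ± 1.06 CPM. The partner MAX did not pass the test, with 50.1 ± 0.421 CPM with DMSO and 56.5 ± 1.56 CPM with ATRA.

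Ribosome biogenesis genes were lower almost throughout. Of 26 tested, 0 were called higher and 25 lower, with a median of -0.84, and there were 25 lower calls without any 1 of the 4 libraries. NOLC1, which shapes the nucleolus, was at 463 and 505 CPM with DMSO and 168 and 163 CPM with ATRA (log2 fold change -1.55, SE 0.105, adjusted p = 2.31e-11). NCL, nucleolin, was at 970.4 and 1083 CPM with DMSO and 577 and 583 CPM with ATRA (log2 fold change -0.83, SE 0.113, adjusted p = 2.34e-06). The most affected was LYAR, a nucleolar regulator of rRNA processing, at 100.1 and 114 CPM with DMSO and 33.8 and 33.2 CPM with ATRA (log2 fold change -1.67, SE 0.109, adjusted p = 1.14e-11). Members of different steps fell together: the polymerase I subunits POLR1A and POLR1B by 0.82 and 1.22 on the log2 scale, the methyltransferase FBL by 0.82, the pseudouridine synthase DKC1 by 0.85, the helicase DDX21 by 1.18, and BOP1, PES1 and WDR12, which form one complex of the large subunit, by 1.23, 0.87 and 1.18.

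MYC and MAX bind the E-box CACGTG. It was found in the promoter windows of 11 of the 20 lowered members that had a window, and in 1309 of 10560 tested genes (12.4%). The 1 member not called had none in its windows. A match describes the letters alone, and a role of MYC in these falls was not tested. LYAR's window, on GRCh38.p14 at chr4:4289972-4290271 on the minus strand, is printed as the example with the largest fall, with the E-box in capitals, 64 bases before the start.
LYAR promoter: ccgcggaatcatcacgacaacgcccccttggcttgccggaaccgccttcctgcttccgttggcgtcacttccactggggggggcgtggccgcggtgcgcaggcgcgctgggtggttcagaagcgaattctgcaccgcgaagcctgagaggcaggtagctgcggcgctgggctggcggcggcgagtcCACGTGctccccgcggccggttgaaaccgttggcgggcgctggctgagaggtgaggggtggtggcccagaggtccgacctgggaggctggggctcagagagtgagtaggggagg

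Genes of serine, folate and transsulfuration metabolism, which supply one-carbon units and cysteine, fell. Of 15 tested, 1 was called higher and 10 lower, with a median of -0.90; the higher call was lost without any 1 library and the lower calls stayed at 10. All 3 enzymes of serine synthesis were lower. PHGDH, the first of them, was at 195 and 185 CPM with DMSO and 65.9 and 70.8 CPM with ATRA (log2 fold change -1.48, SE 0.119, adjusted p = 2.12e-09), PSAT1, the next, at 173 and 177 CPM with DMSO and 26.1 and 24.9 CPM with ATRA (log2 fold change -2.77, SE 0.122, adjusted p = 1.74e-14), and PSPH, the last, went from 24.1 ± 2.91 to 11.6 ± 0.156 CPM (log2 fold change -1.06, SE 0.13, adjusted p = 5.18e-07). The mitochondrial folate enzymes SHMT2, MTHFD2 and MTHFD1L fell by 0.90, 1.48 and 1.83 on the log2 scale, and CTH, which acts after CBS, by 1.44. Cytosolic and methionine cycle genes were mixed: MTHFD1 and AHCY fell by 0.74 and 0.68, and MTR and MAT2A did not pass the test (log2 fold changes -0.12 and -0.16).

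Genes of the amino acid stress response were mostly lower. Of 14 tested, 3 were called higher and 9 lower (median -0.66). ATF4, its main transcription factor, was at 339 and 358 CPM with DMSO and 157 and 166 CPM with ATRA (log2 fold change -1.11, SE 0.108, adjusted p = 1.29e-08). Its targets ASNS, asparagine synthetase, and TRIB3, a pseudokinase, fell from 26.7 ± 1.15 to 8.48 ± 0.569 CPM and from 85.2 ± 9.11 to 33.5 ± 2.11 CPM. SLC7A5, a transporter of large neutral amino acids, was at 90.8 and 69.1 CPM with DMSO and 19.6 and 21 CPM with ATRA (log2 fold change -1.98, SE 0.12, adjusted p = 3.22e-12), and its partner SLC3A2 fell from 80.3 ± 0.754 to 55.5 ± 1.38 CPM. GPT2, a mitochondrial alanine transaminase, fell from 55.2 ± 4.69 to 9.53 ± 0.299 CPM (log2 fold change -2.54). DDIT4, an inhibitor of mTORC1 signalling, rose against the list, at 14.5 and 11.5 CPM with DMSO and 89.4 and 109 CPM with ATRA (log2 fold change 2.93, SE 0.138, adjusted p = 2.55e-12), and so did the cystine transporter SLC7A11, from 61.7 ± 5.49 to 85.5 ± 5.55 CPM (log2 fold change 0.47).

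Of 22 tested glycolysis genes, 7 were called higher and 6 lower (median -0.03), against 21.7% and 20.1% of all genes tested. HK3, the myeloid hexokinase, was at 2.66 and 1.7 CPM with DMSO and 83.4 and 95.1 CPM with ATRA (log2 fold change 5.34, SE 0.184, adjusted p = 6.88e-13), while HK2, the growth-associated one, was at 152 and 165 CPM with DMSO and 40.9 and 39.7 CPM with ATRA (log2 fold change -1.98, SE 0.098, adjusted p = 7.51e-14). LDHA and LDHB, the lactate dehydrogenase chains, fell from 583 ± 41.2 to 335 ± 4.22 CPM and from 763 ± 26.4 to 479.7 ± 16.7 CPM. PFKFB3, which makes the activator of phosphofructokinase, rose from 37.2 ± 4.996 to 93.8 ± 4.61 CPM (log2 fold change 1.33, SE 0.106, adjusted p = 4.33e-10), and FBP1, of gluconeogenesis, from 0.131 ± 0.00742 to 1.9 ± 0.116 CPM (log2 fold change 3.83). GAPDH, ENO1, PGK1 and TPI1 did not pass the test, at log2 fold changes from -0.19 to -0.11.

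Lysosomal genes rose broadly: of 29 tested, 21 were called higher and 1 lower (median 0.81), and the single lower call was lost without any 1 library. CTSD, given above in TPM, was at 367 and 274 CPM with DMSO and 2632 and 3009 CPM with ATRA. GRN, progranulin, was at 46.2 and 37.2 CPM with DMSO and 303 and 388 CPM with ATRA (log2 fold change 3.05, SE 0.134, adjusted p = 1.32e-14). PSAP, the precursor of the saposins that help digest glycolipids, rose from 226 ± 0.632 to 722 ± 21.9 CPM, the protease CTSS from 58 ± 5.25 to 178 ± 1.99 CPM, the glucuronidase GUSB from 95.7 ± 1.01 to 286 ± 4.9 CPM and NPC2, which hands cholesterol out of the lysosome, from 88.5 ± 1.6 to 205 ± 8.05 CPM. TFEB and TFE3, factors that switch lysosomal genes on, rose from 9.77 ± 1.63 to 18.3 ± 2.04 CPM and from 15.4 ± 0.461 to 31.7 ± 1.92 CPM. LAMP1 and LIPA did not pass the test (log2 fold changes 0.21 and 0.26).

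Cholesterol genes were grouped by efflux and by synthesis and uptake. All 7 tested genes of efflux and of the liver X receptors (LXR) were called higher (median 1.53). In the fit of all 16 libraries, which tested 10 of the list, the U-937 median was 1.32. NR1H3, which encodes LXR alpha, was at 3.54 and 3.56 CPM with DMSO and 22.1 and 25.5 CPM with ATRA (log2 fold change 2.74, SE 0.145, adjusted p = 2.60e-13). PLTP, a phospholipid carrier and LXR target, was at 20.2 and 17.8 CPM with DMSO and 121 and 132 CPM with ATRA (log2 fold change 2.74, SE 0.112, adjusted p = 2.32e-15). ABCA1, the efflux pump, rose from 0.147 ± 0.0314 to 1.51 ± 0.163 CPM (log2 fold change 3.33), SREBF1 from 27.9 ± 6.06 to 81 ± 1.19 CPM and MYLIP, a ubiquitin ligase and LXR target, from 31.5 ± 1.08 to 59.7 ± 5.64 CPM. ABCG1 and APOE, also in this list, had too few counts to test in the fit of the U-937 libraries alone. Of 19 genes of synthesis and uptake, 2 were called higher and 5 lower (median -0.13); the lower calls were 2 without ATRA replicate 1, 3 without DMSO replicate 2 and 9 with scaling to library totals alone, and 1 higher call was left without ATRA replicate 1, ATRA replicate 2 or DMSO replicate 2. Over all genes tested, 21.7% were called higher and 20.1% lower. INSIG1, which holds the activator of cholesterol synthesis in check, fell from 773 ± 23.1 to 529 ± 8.46 CPM (log2 fold change -0.55, SE 0.106, adjusted p = 1.88e-04).

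Of 13 eicosanoid genes, 5 were called higher and 3 lower (median 0.72), with the lower calls 1 without ATRA replicate 1 or DMSO replicate 1. ALOX5AP, which presents arachidonate to 5-lipoxygenase, was at 21.7 and 22.5 CPM with DMSO and 218 and 228 CPM with ATRA (log2 fold change 3.33, SE 0.126, adjusted p = 5.50e-16). The lipoxygenase itself, ALOX5, was near 0, with 2 summed counts with DMSO and 5 with ATRA. PTGS1, cyclooxygenase-1, was at 82.5 and 78.8 CPM with DMSO and 625 and 574 CPM with ATRA (log2 fold change 2.89, SE 0.109, adjusted p = 5.13e-16), and PTGES, a prostaglandin E synthase, had 1 summed count with DMSO and 244 with ATRA, a ratio of 216 (counting interval 38.5 to 8584). LTB4R, the leukotriene B4 receptor, rose from 29.2 ± 0.76 to 88.5 ± 2.48 CPM, and TBXAS1, thromboxane synthase, from 43.8 ± 2.74 to 95.2 ± 2.04 CPM.

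Survival genes of the BCL2 family also included calls in both directions, the lower ones at the share of all genes. Of 15 tested, 6 were called higher and 3 lower. The median was 0.18. It was 0.28 when ATRA replicate 1 was left out, 0.07 for ATRA replicate 2 and 0.05 for DMSO replicate 2. BCL2 itself, an inhibitor of apoptosis, was at 102 and 115 CPM with DMSO and 41.9 and 41.5 CPM with ATRA (log2 fold change -1.38, SE 0.106, adjusted p = 2.24e-10). BMF, a death-promoting member released from the cytoskeleton, was at 14.2 and 12.1 CPM with DMSO and 50.2 and 54.2 CPM with ATRA (log2 fold change 1.99, SE 0.114, adjusted p = 1.06e-12), and the pore formers BAX and BAK1 rose from 14.7 ± 0.124 to 22.3 ± 0.385 CPM and from 27.7 ± 1.4 to 41.2 ± 2.18 CPM. HRK, a further death-promoting member, fell from 2.24 ± 0.15 to 0.143 ± 0.0311 CPM (log2 fold change -3.92, SE 0.47, adjusted p = 3.09e-07). BCL2L1 and BCL2A1, both protective, did not pass the test (log2 fold changes 0.19 and -0.18).

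Of 5 tested ADP-ribosyl cyclases, ectonucleotidases and adenosine receptors 4 were called higher and 0 lower (median 1.87). BST1 (CD157), the neighbour and relative of CD38, rose from 23.3 ± 1.39 to 45.5 ± 1.43 CPM (log2 fold change 0.96, SE 0.119, adjusted p = 5.78e-07), ENTPD1 (CD39), which degrades extracellular ATP, from 13.8 ± 2.03 to 50.5 ± 2.46 CPM and the adenosine receptor ADORA2A from 0.63 ± 0.404 to 3.92 ± 1.51 CPM. Besides TGM2, the transglutaminases TGM3 and TGM5 rose, from 0.345 ± 0.0887 to 2.13 ± 0.042 CPM and from 25.7 ± 1.83 to 55.6 ± 0.357 CPM, and F13A1 did not pass the test, with 15.8 ± 0.486 CPM with DMSO and 16.6 ± 0.634 CPM with ATRA.

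Genes of actin and migration were called higher in 12 of 17 and lower in 1 (median 0.74), with 2 lower without DMSO replicate 2. GSN, the filament-severing gelsolin, was at 11.3 and 10.01 CPM with DMSO and 43.7 and 48.7 CPM with ATRA (log2 fold change 2.12, SE 0.125, adjusted p = 1.90e-12). LSP1, a leukocyte actin-binding protein, rose from 24.6 ± 2.86 to 74.3 ± 6.19 CPM, WAS, which switches on branched actin, from 27.1 ± 3.25 to 51.3 ± 0.56 CPM and PFN1, profilin, from 382 ± 13 to 636 ± 19.96 CPM. DIAPH1, a formin like DAAM2, fell from 184 ± 3.45 to 129 ± 10.4 CPM (log2 fold change -0.51, SE 0.0963, adjusted p = 1.57e-04), while DAAM1, the closest relative of DAAM2, rose from 11.3 ± 0.578 to 21.1 ± 1.43 CPM.

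In the TGF-beta pathway 17 genes were tested and 6 were called higher and 1 lower (median 0.25). For this count and those that follow, 21.7% of all genes tested were called higher and 20.1% lower. THBS1, thrombospondin-1, which can release latent TGF-beta, rose from 1.18 ± 0.14 to 7.33 ± 0.273 CPM (log2 fold change 2.62, SE 0.194, adjusted p = 1.17e-10), SMAD3 from 94.5 ± 2.46 to 142 ± 5.49 CPM and the receptor TGFBR2 from 43.8 ± 1.5 to 66.8 ± 2.48 CPM; LRRC32, which docks latent TGF-beta, went from no counts to 0.283 CPM, at least 5.62-fold higher. For NF-kappaB feedback 12 genes had a median of 0.11 and 4 were called higher and 2 lower, with 1 lower call without ATRA replicate 1 or DMSO replicate 1. TNFAIP3 and CYLD, which remove ubiquitin from the pathway, rose from 9.58 ± 0.13 to 14.6 ± 1.03 CPM and from 37.8 ± 4.06 to 70.3 ± 0.536 CPM, and SOD2, the mitochondrial superoxide dismutase, fell from 158 ± 10.3 to 70.6 ± 1.44 CPM (log2 fold change -1.16, SE 0.095, adjusted p = 7.12e-10). Among 8 genes that write or erase DNA methylation 3 were called higher and 3 lower: DNMT3A, TET2 and TET3 rose by 0.63, 0.46 and 0.53 on the log2 scale, and DNMT1 and TET1 fell by 0.39 and 1.25.

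Markers of dendritic cells were also measured. Of 7 of 13 tested, 3 were called higher and 1 lower. CD209, the lectin DC-SIGN, had 1 summed count with DMSO and 142 with ATRA, a ratio of 126 (counting interval 22.2 to 5010.3), and BATF3, a factor of one dendritic cell subset, fell from 8.82 ± 0.156 to 2.88 ± 0.0112 CPM (log2 fold change -1.61, SE 0.184, adjusted p = 1.58e-07); CD1A, CD1B, CD1E and XCR1 had no counts. Of 11 lymphoid markers 5 were tested, with a median of 0.36, or 0.10 without DMSO replicate 2. The B cell receptor chain CD79A rose from 0.955 ± 0.377 to 1.84 ± 0.284 CPM (log2 fold change 0.95, SE 0.304), a call lost without ATRA replicate 1 or DMSO replicate 1. The B cell factor PAX5 fell from 9.78 ± 1.93 to 4.19 ± 0.737 CPM (log2 fold change -1.22, SE 0.1998, adjusted p = 2.62e-05). Of 12 eosinophil, basophil and mast cell markers 4 were tested, with a median of -0.58, or -0.88 and -0.08 without DMSO replicate 1 and 2. The eotaxin receptor CCR3 rose from 0.4998 ± 0.179 to 1.08 ± 0.196 CPM (log2 fold change 1.09, SE 0.372), a call lost without ATRA replicate 2 or DMSO replicate 2. TPSAB1, a mast cell tryptase with near-identical copies, fell from 27.1 ± 3.94 to 11.2 ± 1.21 CPM (log2 fold change -1.28).

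Whether the response differed from that of the other line was tested as an interaction in a fit of all 16 libraries. Of 19855 genes, 3841 (19.3%) had a different response, 2093 (10.5%) with the change higher in U-937 and 1748 (8.8%) with it lower. The balance of the calls was not stable. With scaling to library totals alone the split was 1721 higher and 2355 lower. Without any 1 of the 8 libraries compared there were also more lower than higher calls. The higher calls were 1305 without SKNO-1 ATRA replicate 1, against 1500 lower, and 2472 without SKNO-1 DMSO replicate 2, against 2486 lower. The lines also differed in medium, so line and GM-CSF cannot be told apart.

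**Figure D5:**
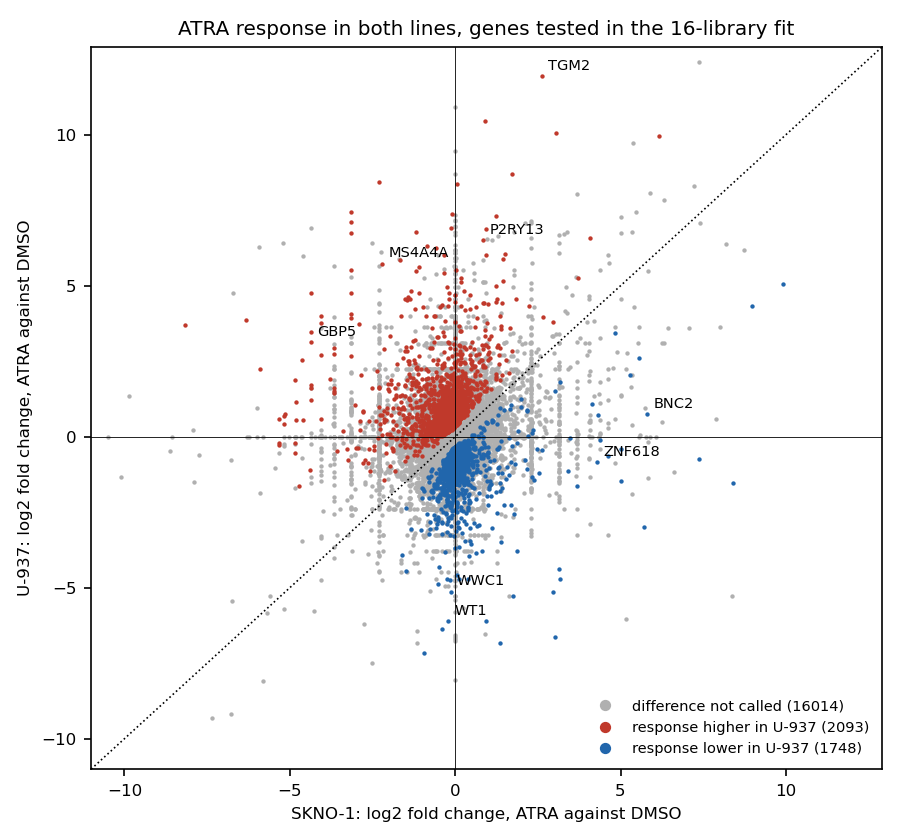
Log2 fold change of ATRA against DMSO in SKNO-1 (horizontal) and U-937 (vertical) for the genes tested in the 16-library fit; red and blue mark genes whose response was called higher (2093) or lower (1748) in U-937, and the dotted line marks equal responses. TGM2, P2RY13, MS4A4A and GBP5 lie above the line, and WT1, WWC1, ZNF618 and BNC2 below it.

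TGM2 rose in both lines and more in U-937. With CPM scaled over all 16 libraries, in SKNO-1 it was at 2.79 and 2.25 CPM with DMSO and 15 and 16.2 CPM with ATRA, a log2 fold change of 2.63 there, and the difference between lines was 9.31 (SE 0.409, adjusted p = 1.22e-11), with the U-937 side resting on 1 count in DMSO. P2RY13 was at 2.4 and 2.42 CPM with DMSO and 3.84 and 4.8 CPM with ATRA in SKNO-1, a difference of 5.68 (SE 0.334). MS4A4A, a tetraspan protein of macrophages, was at 2.33 and 2.85 CPM with DMSO and 137 and 138 CPM with ATRA in U-937 and at 0.33 and 0.366 CPM with DMSO and 0.0923 and 0.0555 CPM with ATRA in SKNO-1, a difference of 7.93 (SE 0.641). GBP5 was near 0 in SKNO-1, with 5 summed counts with DMSO and 0 with ATRA, so that its difference has no SE, and its call was lost without SKNO-1 DMSO replicate 2 (adjusted p = 0.0663).

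On the lower side, WT1, a zinc finger factor of progenitors, was at 28.8 and 32.2 CPM with DMSO and 25.5 and 27.3 CPM with ATRA in SKNO-1 and had 16 summed counts in U-937 with DMSO and 0 with ATRA. WWC1, a regulator of the Hippo pathway, likewise had 8 and 0 counts in U-937; its call was lost without U-937 ATRA replicate 1, ATRA replicate 2 or DMSO replicate 2. ZNF618, a zinc finger protein, was at 37.4 and 28.2 CPM with DMSO and 19.9 and 16.9 CPM with ATRA in U-937 and at 0.0899 and 0 CPM with DMSO and 0.677 and 1.17 CPM with ATRA in SKNO-1, a difference of -5.14 (SE 0.626, adjusted p = 7.19e-06). BNC2, basonuclin-2, was at 14 and 13.8 CPM with DMSO and 24.4 and 22.6 CPM with ATRA in U-937 and had no counts in SKNO-1 with DMSO and 14 with ATRA. Most of these differences rest on a line in which the gene was near 0.

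In ribosome biogenesis the response was lower in U-937 for 24 of 26 genes, and the SKNO-1 median was -0.02. Lysosomal genes differed in 21 of 31, all with the higher response in U-937 (SKNO-1 median -0.10). Serine, folate and transsulfuration genes differed in 10 of 15, all with the lower response in U-937 (SKNO-1 median 0.07). Interferon-stimulated genes responded more in U-937 in 18 of 32 and less in 1, or in 0 to 2 when 1 library was left out (SKNO-1 median -0.10). Monocyte and macrophage surface genes responded more in 12 of 29, or in 8 when the fit held only the 8 libraries compared, and less in 1, or in 0 in that fit and when 1 of several libraries was left out. Complement genes responded more in U-937 in 8 of 15 (SKNO-1 median 0.20). Textbook retinoic acid targets split, with 5 of 16 higher and 4 lower in U-937.

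The authors' deposited table for the same comparison, made with DESeq2, calls 6479 of 25299 genes, 3204 higher and 3275 lower. It shares 17666 genes with the test above, and 6147 genes were called in both, all 6147 in the same direction.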

How the data were processed

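Per the labels' protocols, total RNA was made into libraries with a stranded kit and sequenced to at least 50 M paired reads of 100 bp per sample. The authors deposited estimated counts and TPM per gene from RSEM on hg38, and the submitters' processing notes also name Trimmomatic, STAR, deepTools and DESeq2. The authors' own comparison table gives log2 fold changes and adjusted p-values, per the file headers. Annotation release and use of strand are not given in the sources used here.

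In the deposited count table, the columns of the 8 ATRA and DMSO libraries of both lines equalled the single-library files (largest difference 0). Columns of libraries with Corin were not checked in this way. Of the table's 60603 genes, 45 pseudoautosomal copies were added to their X copy, and counts were rounded. In R 4.3.3, edgeR 4.0.16 kept genes by filterByExpr, scaled by TMM and fitted a robust quasi-likelihood model without a replicate block to the 8 U-937 libraries (4 residual degrees of freedom, biological coefficient of variation 0.0945) or, for the interaction, to all 16. Depth was 28.8 to 36.3 M counts per library compared. In counts simulated from these libraries, 98% of 2-fold and 98% of 4-fold changes were recovered for ATRA in U-937, and 66% and 98% for the interaction. The simulation changed only well-counted genes and gave every gene the same dispersion, so it does not describe genes near 0. SE is the log2 fold change over the root of F, and is not given where a group has 0 counts. For genes with 0 counts in DMSO, a floor of 3 summed counts stands in and the fold is given as at least that. With 1 to 3 summed counts the ratio has an exact 95% interval. Both cover counting error only. TPM values are the authors' deposited values. Positions are GENCODE 44 on hg38, and promoter windows are RefSeq's.

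Named genes are the 12 largest rises and falls among called genes averaging 5 CPM or more in the 4 libraries, with no overlap of the groups, the 6 largest gains and losses in TPM among called protein-coding genes, the 3 long noncoding RNAs furthest each way at 2 CPM or more, the 4 largest differences between lines each way at 5 CPM or more, and members of 45 gene lists, a few of which are not reported here. The members and lists were chosen with earlier results of these data known. Alternatives were DESeq2 (1.42.0) size factors, its test, library totals alone, no count filter, a replicate block, only the libraries compared and leaving out each library. A removed GC trend and the response element and E-box searches were added after seeing the data.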

Additional observations from a re-analysis of the deposited data

Results flagged for a closer look

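The response to ATRA differed between U-937 and SKNO-1 in 3841 genes by the interaction test in edgeR. On the log2 scale, the U-937 response minus the SKNO-1 response was 9.31 for TGM2, 7.93 for MS4A4A, 7.51 for GBP5 and 5.68 for P2RY13. It was -5.89 for WT1, -5.14 for ZNF618, -5.05 for BNC2 and -4.99 for WWC1. GBP5 and BNC2 had a group with 0 counts in SKNO-1, and WT1 and WWC1 had one in U-937. These 4 values have no SE and depend on the prior count, so their size is uncertain. That of TGM2 rests on 1 count in U-937 with DMSO. By list, the response differed in 24 ribosome biogenesis genes, 13 monocyte and macrophage surface genes, 8 complement genes, 19 interferon-stimulated genes and 21 lysosomal genes. In all of these the difference itself was tested, and the medium of SKNO-1 held GM-CSF while that of U-937 did not, so line and medium cannot be told apart.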

How the results depend on the processing

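Under all 11 alternatives the number of genes called for ATRA in U-937 stayed within 1.5 times the 7400 reported, from 5584 without ATRA replicate 2 to 8140 with only the 4 libraries compared; leaving out 1 library gave 5584 to 5989, and 2153 to 2273 for changes of at least 2-fold. For the difference between lines, leaving out 1 library gave 2805 to 4958 genes, with more lower than higher calls each time, and scaling to library totals alone gave 1721 higher and 2355 lower against 2093 and 1748. With a replicate block, 7052 genes were called for ATRA, 2313 by at least 2-fold, and 3756 for the difference between lines. The labels give the groups shared numbers only: the replicate 1 minus 2 differences of ATRA and DMSO correlated at -0.04 across 9443 genes. Of 261 called genes named, 256 were called under every alternative tried, and none changed direction; MATR3, RPL9 and RPL14 lost the call under the block and without single libraries, and CD79A and CCR3 lost it with DESeq2's test and without single libraries. List medians near 0 also moved when 1 library was left out: from -0.07 to 0.11 for the MYC network, -0.01 to 0.10 for kinase inhibitors, -0.01 to 0.12 for mitosis, -0.13 to 0.05 for glycolysis, 0.09 to 0.23 for retinoid metabolism, 0.11 to 0.20 for receptors and coregulators and 0.16 to 0.37 for the TGF-beta pathway. The difference between the DMSO libraries rose with GC content (r = 0.585 across genes), and removing the GC trend gave 7891 calls. Depth limits genes under a few counts per library, where fitted folds depend on the prior count.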
